A study of Rattus norvegicus with 8 samples.

Results

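The nuclei described here come from the rat vagal sensory ganglia and carry transcripts of Pcdh15 together with Ndst4 or Dok5; 292 of them lay in neuron clusters. They were chosen by raw counts of unique molecular identifiers (UMIs, each standing for 1 captured transcript). A nucleus was a member with at least 2 UMIs of Pcdh15 and a sum of Ndst4 and Dok5 UMIs of at least 1. The rule found 359 members among 36741 nuclei, 0.977% of all, in 12 pools. The study profiled nodose ganglia of experimentally naive Long Evans rats aged 8 weeks, 18 per sex, by single-nucleus RNA sequencing. In every pool the ganglia of 6 rats from a single side were mixed, 3 pools for each combination of labelled sex and side, and the labels name no treatment or transgene. The pools are written ML1 to ML3 (male-labelled, left), MR1 to MR3 (male-labelled, right), FL1 to FL3 (female-labelled, left) and FR1 to FR3 (female-labelled, right). With 18 rats per sex, left and right pools of a sex would draw on the same animals, and the labels do not say that equal numbers come from the same rats.

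Pcdh15 encodes protocadherin-15, best known as one of the proteins of the tip link that opens the transduction channel of inner-ear hair cells. Ndst4 encodes an enzyme that replaces acetyl with sulfate groups on heparan sulfate, the sugar chain that holds growth factors and guidance cues at the cell surface, and Dok5 encodes a docking protein that acts behind receptor tyrosine kinases. Nxph1, a secreted partner of alpha-neurexins at synapses, was named as a marker of these neurons and is not part of the rule. Vagal sensory neurons carry stretch, chemical and inflammatory signals from the viscera to the brainstem, and their subtypes differ in ion channels, receptors and peptides.

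Members were found in every pool, from 10 in FL2 to 45 in FR3, and had a median of 6096 UMIs (range 931 to 49808), against 2925 in the other neurons. A rule on raw counts admits deep nuclei more readily, and the values that bear on depth stand beside the results below. Among the members, 39 had a combination of barcoding wells that also occurred in another sublibrary, as did 3808 of all nuclei. Y-linked transcripts went against the labels of 2 pools: ML1 held 2.88 UMIs per 1000000 (CPM, counts per 1000000 UMIs) of them, as little as the female-labelled pools, and FL1 held 88.6 CPM, as much as the male-labelled pools. Results by sex are therefore given by label; the member share and the fits across genes were also run without these pools.

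The marker left out of the rule was high in members of every pool. This is a description, since Nxph1 was named as a marker with earlier results of these nuclei known. Nxph1 had 457.9 CPM over all members and 31.9 CPM over the 22658 other neurons. Among left pools, member levels were 235.9 CPM for ML1, 620.5 for ML2, 532.2 for ML3, 367.6 for FL1, 317.4 for FL2 and 466.2 for FL3. Among right pools they were 397.9 CPM for MR1, 629.4 for MR2, 642.0 for MR3, 569.6 for FR1, 431.3 for FR2 and 496.7 for FR3. ML1, the pool with the lowest member level, was still above the highest level in other neurons, 46.8 CPM, so the groups did not overlap. A Nxph1 UMI was present in 235 of 359 members (65.5%, exact binomial 95% interval 60.3 to 70.4, counting error only) and in 5.87% of the other neurons. In myelinating Schwann cells, which should lack it, 4.13% of nuclei held one at a median of 1557 UMIs.

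The genes of the rule are given as a description, since they chose the members. Pcdh15 reached 794.6 CPM in members and 23.9 CPM in other neurons, with a median of 4 and a maximum of 57 UMIs per member. Ndst4 was seen in 303 members (84.4%) at 368.5 CPM against 17.3 CPM, and Dok5 in 150 members (41.8%) at 86.6 CPM against 15.2 CPM. Most members entered through Ndst4: 209 held Ndst4 alone, 56 Dok5 alone and 94 both. In myelinating Schwann cells, which give an idea of free RNA, Pcdh15 had 17.4 CPM, Ndst4 8.14 CPM and Dok5 5.49 CPM, so the levels in other neurons lay within 3-fold of that floor.

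**Figure D1:**
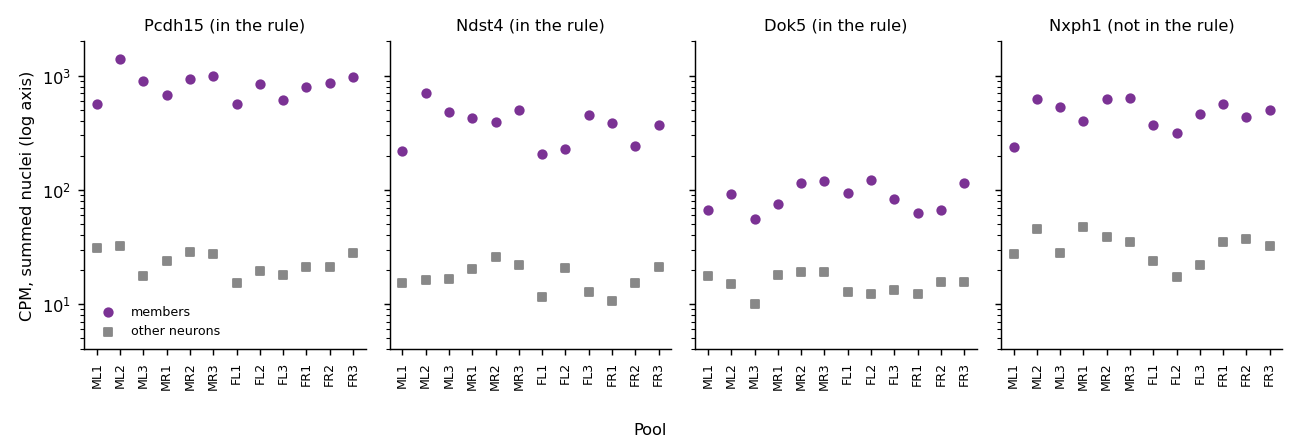
Level of Pcdh15, Ndst4, Dok5 and Nxph1 in members (purple circles) and other neurons (grey squares) of each pool, in CPM of the summed nuclei on a log axis. Every member value lies above every value of the other neurons for each gene, and the first 3 genes chose the members; Nxph1, which the rule does not use, runs from 235.9 to 642.0 CPM in members.

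In the share that held Nxph1, nuclei just inside the rule were near those just outside it. With exactly 2 Pcdh15 UMIs and 1 UMI of Ndst4 or Dok5 there were 52 members, and 36.5% of them held Nxph1. Just outside lay 286 nuclei with 1 Pcdh15 UMI and at least 1 of the other genes, 33.2% with Nxph1, and 406 nuclei with at least 2 Pcdh15 UMIs and none of the others, 28.6% with Nxph1. In the 163 members with at least 3 Pcdh15 UMIs and at least 2 of the others, the share with Nxph1 was 82.2%. Of all 765 nuclei with 2 or more Pcdh15 UMIs, 46.9% met the rule.

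When neurons were clustered without the 3 genes of the rule, many members fell into 1 cluster. This leading cluster held 181 of the 359 members (50.4%, exact binomial 95% interval 45.1 to 55.7) among 756 nuclei at Leiden resolution 1. At resolution 2 the same 181 members lay in a smaller cluster of 361 nuclei, 50.1% of which were members. Its leading genes by fold included Pcdh15, Ndst4, AABR07058412.1, Nxph1, Ano1, Adgrg2, Cntn3, Actn2 and Tafa2. Pcdh15, Ndst4 and Dok5 took no part in the clustering. Nxph1 could take part, so its level by cluster is a description. The nuclei that split off, 395 of them with no member, carried Dok5 at 242.8 CPM but Pcdh15 at 27.9, Ndst4 at 13.9 and Nxph1 at 18.3 CPM. Dok5 was thus present in a neighbouring set of neurons in which the other markers were near their level in other neurons.

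The smaller cluster was picked because it held the most members, and they supplied 1652 of its 1899 Pcdh15 UMIs and 738 of its 899 Ndst4 UMIs. Over its 361 nuclei Pcdh15 had 1103.8 CPM, with a range over pools of 637.7 to 1675.8. Ndst4 had 522.6 CPM (256.2 to 934.1), Dok5 144.7 CPM (99.6 to 181.0) and Nxph1 766.1 CPM (384.3 to 1080.3). The 180 nuclei of the cluster that the rule missed were shallower, with a median of 2896 UMIs against 5047 in its members. Among them 93 had no Pcdh15 UMI, 46 had 1, and 41 had 2 or more without Ndst4 or Dok5. They carried Pcdh15 at 375.8 and Ndst4 at 245.0 CPM. They also carried Nxph1 at 454.9 CPM and Tafa2 at 2883.2 CPM, against 958.5 and 3017.6 CPM in the members of the same cluster. The share of the cluster that met the rule was 28.9% among its 90 shallowest nuclei, up to 2331 UMIs, then 41.1% and 55.6%, and 74.7% among its 91 deepest, from 6337 UMIs.

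The other members did not form 1 group. A cluster with Eya4, Nxph1, Mybpc1 and Wdr72 among its leading genes held 45 members among 617 nuclei; these had Pcdh15 at 818.8, Nxph1 at 607.5 and Slit2, a guidance ligand, at 1452.8 CPM. Kcnh7, at 2753.2 CPM in members of the leading cluster, had 755.4 CPM there, and Spp1 was at 0 of 189292 UMIs, which allows up to 15.8 CPM. A cluster led by Gabrg1, Syndig1, Tmem196 and Cdh7 held 40 members among 329 nuclei. All 40 had entered through Ndst4 alone, with no Dok5 UMI, and 4 of them (10%) held Nxph1. Their Gabrg1, a GABA-A receptor subunit, stood at 664.5 CPM, against 356.5 CPM in members of the leading cluster. Nxph1 was thus high in members of the leading and Eya4 clusters and near its level in other neurons in members of the Gabrg1 cluster. A further cluster of 721 nuclei, with Rnf220, Nxph1 and Kcnk2 among its leading genes, had Nxph1 at 423.3 CPM but Pcdh15 at 21.9 CPM, and held no member.

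Members in satellite glia clusters and in a mixed cluster carried markers of satellite glia, the cells that wrap each neuron body. Markers on that list helped to name these clusters or set them apart, so the high sums there are a description. Of all members 292 (81.3%) lay in neuron clusters, 37 in mixed clusters that carried markers of neurons and of another class, 17 in satellite glia clusters, 6 in mural cell clusters, 5 in unnamed clusters and 2 in myelinating Schwann cell clusters. The 31 members in a mixed cluster led by Th, Tyrp1 and Apoe had a median of 15408 UMIs, 28 of them held Nxph1, and the 6 satellite glia markers summed to 1677.3 CPM. In the 17 members of satellite glia clusters the same list summed to 1690.3 CPM at a median of 10181 UMIs. In members of the leading cluster it summed to 61.1 CPM, below the 102.5 CPM of the other neurons. Over all members the list summed to 582.2 CPM, with a range of 15.1 to 934.8 over pools against 69.9 to 146.3 in other neurons, and no marker of it was at 0. The part of doublets or free RNA in these members was not tested, since the doublet caller marked 1 nucleus of all.

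**Figure D2:**
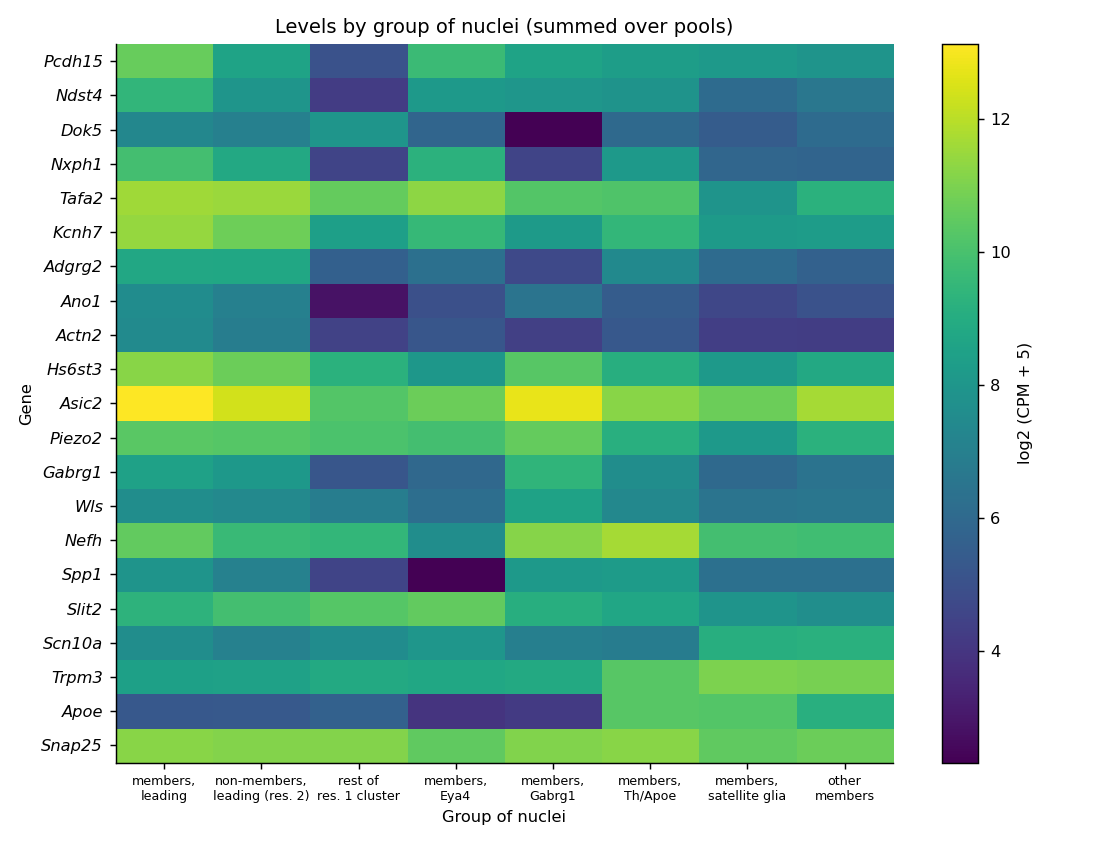
Level of selected genes, as log2 of CPM plus 5 in nuclei summed over pools, in members by the cluster they fell into, in nuclei of the leading cluster at resolution 2 that missed the rule, and in the rest of the resolution 1 cluster. Nxph1 is high in members of the leading cluster (958.5 CPM) and the Eya4 cluster (607.5 CPM) and low in those of the Gabrg1 cluster (18.2 CPM), while Apoe is high in members of the Th and Apoe cluster (1263.4 CPM) and of satellite glia clusters (1182.7 CPM).

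FL1 held few of its members in the leading cluster. There were 8 of 37 (21.6%) in that pool, against 16 of 33 in ML1, 15 of 25 in ML2, 14 of 24 in ML3, 6 of 10 in FL2 and 19 of 33 in FL3. Among the right pools the share ran from 37.9% in FR2 to 66.7% in MR3. Members of FL1 lay in neuron clusters in 64.9% of cases, against 83.2% for the other 11 pools, and 64.9% of them held Nxph1 against 65.5%.

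Some members also met the rule of another neuron group, nuclei with at least 2 Nxph1 UMIs and at least 1 UMI of Slit2 and Kcnk2 together. The overlap of 169 nuclei was 47.1% of the 359 members and 18.3% of the 925 nuclei of that rule.

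All 359 members, of which 292 lay in neuron clusters, were compared with the other neurons of their own pool. Genes count as higher or lower here where the log2 ratio of CPM plus 5 reached 2-fold in the same direction in all 12 pools, among 7320 genes with at least 20 CPM in either group and without the genes of the rule. By that description 93 genes (1.27%) were higher and 35 (0.478%) lower. There is no test, because the members were chosen by counts in these nuclei. Deeper nuclei and the satellite glia markers above move with the contrast. Within a window of 3679.5 to 10295 UMIs for both groups (the 25th to 75th percentile of members), 93 genes were again higher, and 58 were lower. With members in neuron clusters alone, an alternative chosen after seeing the data, 110 were higher and 34 lower.

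After Nxph1, the highest ratios belonged to genes of several kinds, given as the median log2 ratio over pools. The secreted osteopontin gene Spp1 had 3.47, the calcium-activated chloride channel Ano1 3.41, the calcium sensor Vsnl1 3.24, the secreted peptide Tafa2 3.13 and the matrix protein Sparcl1 3.12. Tafa2 had 1759.9 CPM in members and 222.2 CPM in other neurons, and 95.3% of members held it. It was not particular to members: the 395 nuclei of the resolution 1 cluster that held no member had 1531.0 CPM. Ano1 had 94.9 against 5.05 CPM and ran from 70.8 CPM in MR2 to 154.6 CPM in MR3. Spp1 ran from 45.3 CPM in FL2 to 319.0 CPM in FR1, and Sparcl1 reached 322.3 CPM in members of the Th and Apoe cluster against 228.6 CPM in members of the leading one.

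Next came the adhesion receptor Adgrg2 (3.01), Sh3rf3 (2.98), Fam184b (2.98), Gabrg1 (2.97), the contactin Cntn3 (2.87) and the synaptic protein Syndig1 (2.86). Actn2 (2.81), which encodes an actinin of the muscle sarcomere, was high in the leading cluster, where it had 174.0 CPM in members, against 15.6 CPM in members of the Gabrg1 cluster. The potassium channel Kcnh7 (2.77) had 1305.4 CPM in members and 208.1 CPM in other neurons. Also among the 20 highest were the Wnt carrier Wls (2.70), the orphan receptor Gpr139 (2.68), Irag1 (2.66), Etl4 (2.55) and Kank1 (2.54). Kank1 had 286.0 CPM in members of the leading cluster, 292.5 in the Th and Apoe cluster and 261.2 in satellite glia clusters. In members of the Eya4 and Gabrg1 clusters it had 37.0 and 52.1 CPM, against 32.3 CPM in other neurons. In the depth window the 20 highest genes kept a median log2 ratio above 2.

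Among the genes with the lowest ratios, Scn10a, the tetrodotoxin-resistant sodium channel of nociceptive and many visceral afferents, had 267.7 CPM in members and 1319.7 CPM in other neurons, a median log2 ratio of -2.46. In members it ranged from 153.6 CPM in ML2 to 591.4 CPM in ML1, below the lowest value of other neurons, 1153.1 CPM. Gdpd4 had a ratio of -2.77, Adamts16 -2.54, the cation channel Trpc4 -2.52, Tafa4 -2.20, the kinase gene Camk4 -2.19, Necab1 -2.15, the receptor Gpr149 -2.12, the mitochondrial calcium uniporter subunit Mcub -2.07 and Tmem132c -2.05. For Adamts16 the member and other-neuron values of the pools overlapped across pools, although it was lower within each.

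**Figure D3:**
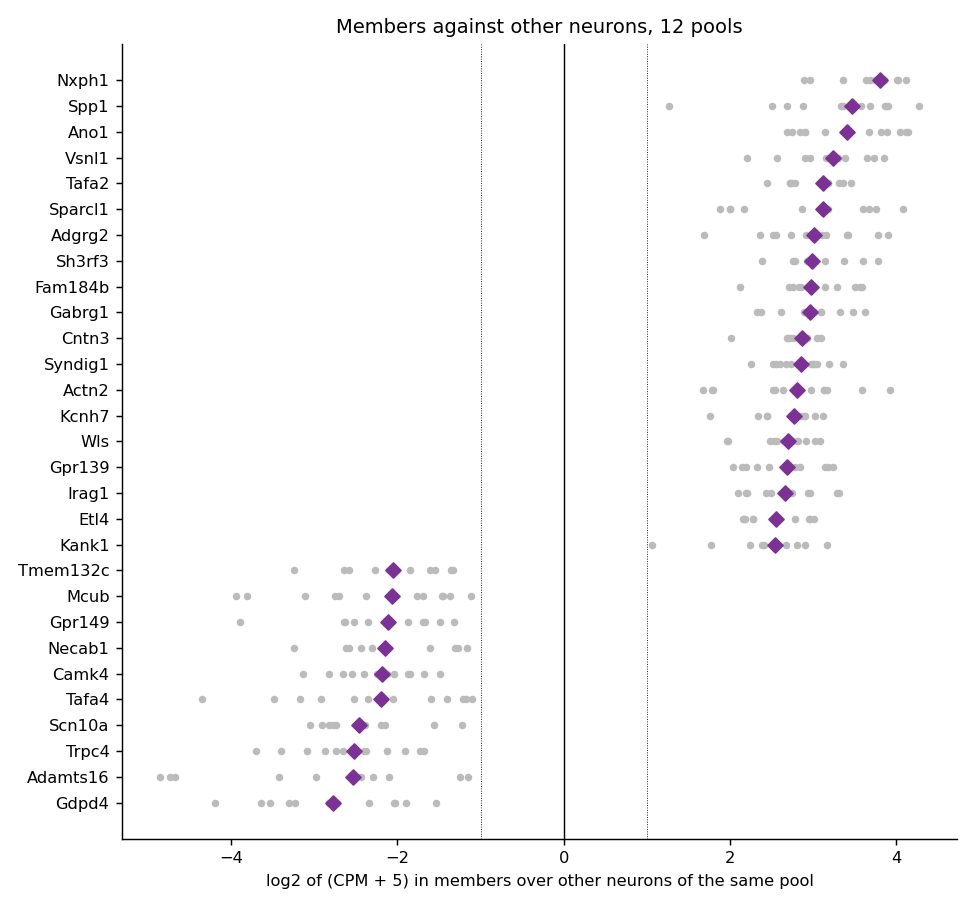
Log2 ratio of CPM plus 5 in members over other neurons for genes named among the 20 with the highest and the 10 with the lowest median ratio; grey points are the 12 pools, purple diamonds the medians and dotted lines 2-fold. Every pool lies past 2-fold for each gene, and the pools spread widely for Spp1, from 1.27 to 4.28.

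None of the 6 genes of the tip link and its transduction complex found in the table reached 20 CPM. Cdh23, the cadherin at the other end of the tip link, had 7.27 CPM in members and 1.59 CPM in other neurons, from 21 UMIs. Tmie had 9.70 against 3.59 CPM, and Lhfpl5 18.4 against 19.7 CPM. The channel genes Tmc1 and Tmc2 gave 3 and 6 UMIs over all members, and Cib3 none. Of the 4 other hair-cell and Usher genes above 20 CPM none was higher or lower by the rule of every pool, and they went both ways: Clrn1 had 85.6 against 25.8 CPM, above other neurons in all 12 pools, while Otof had 17.0 against 60.9 CPM and Adgrv1 25.3 against 78.4 CPM, both below them in all 12.

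Enzymes that build and sulfate heparan sulfate included higher and lower genes. Of 15 above 20 CPM, 2 were higher and 1 lower, with a median log2 ratio of -0.12 against 0.01 over all genes. Hs6st3, a 6-O-sulfotransferase, had 1246.9 CPM in members and 256.4 in other neurons and ran from 872.4 CPM in FL1 to 1560.7 CPM in FR3. The 3-O-sulfotransferase Hs3st2 had 306.2 against 62.9 CPM. Its relative Hs3st4 was lower, at 309.6 against 1135.3 CPM. Ndst3, which encodes an enzyme of the same family as Ndst4, had 64.8 against 74.9 CPM. Among 7 heparan sulfate core proteins none was called, and Gpc5 had 620.3 against 638.6 CPM.

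None of 5 docking proteins and partners above 20 CPM was called, and Dok6 had 288.9 CPM in members and 321.8 CPM in other neurons. Of 6 neurexins and neuroligins none was called.

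Piezo2, the main touch and stretch channel of sensory neurons, was higher, at 976.4 CPM in members and 311.1 CPM in other neurons, and was the 1 called gene of 7. It ran from 770.8 CPM in FL2 to 1207.6 CPM in FR1 in members and from 173.7 to 462.6 CPM in other neurons. The acid-sensing subunit Asic2 had 5471.2 against 2409.4 CPM, higher in all 12 pools with a median log2 ratio of 1.16, but it missed 2-fold in at least 1 pool. Of 18 genes on a list of potassium and related channels 4 were higher, among them Kcnh7, Kcnh1 (196.4 against 50.0 CPM) and Kcnc1 (290.6 against 71.2 CPM), and Kcnq3 was lower (299.6 against 1107.0 CPM). Of 12 sodium channel genes Scn1a was higher, at 570.8 against 123.0 CPM, and none met the rule downward in a list that does not hold Scn10a. On a list of 8 TRP channels, which does not hold Trpc4, Trpm3 was lower, at 944.2 against 2761.9 CPM, and the median log2 ratio of the list was -1.41. The GABA-A subunits Gabrg1 and Gabrb2 (66.5 against 7.03 CPM) were the 2 higher genes of 21 GABA and glutamate receptors.

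Of 7 genes typical of large myelinated afferents and above 20 CPM, 4 were higher and none lower, with a median log2 ratio of 1.44. Besides Spp1 and Vsnl1 these were the heavy neurofilament gene Nefh, at 1659.4 against 406.4 CPM, and Ntng1, at 553.5 against 200.4 CPM. Genes not called went both ways. Nefl was above other neurons in every pool, and Nefm in all but MR3 (1426.7 against 1504.2 CPM). Cntnap2 was below them in every pool, at 3501.6 to 4823.1 CPM in members against 5357.6 to 6413.4 CPM. Nefh was highest in members of the Th and Apoe cluster, at 3199.4 CPM, and lowest in those of the Eya4 cluster, at 190.2 CPM. Slc17a7, which loads glutamate into vesicles, had 38.8 against 5.53 CPM and was higher in 11 pools.

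No gene on the list used for nodose identity was higher by that rule. Of 6 above 20 CPM none was higher and 2, Scn10a and the transcription factor Tbx3 (19.7 against 74.0 CPM), were lower. Scn10a, described above as a channel of nociceptive and many visceral afferents, is not particular to nodose neurons. The list had a median log2 ratio of -0.87, against 0.01 over all genes. P2rx3, an ATP receptor of vagal afferents, had 219.6 against 269.3 CPM. The jugular list, which stands for the neural crest-derived neurons beside the nodose ganglion, had 1 gene above 20 CPM, Runx1, at 149.3 against 117.6 CPM. Neurotrophin receptors were uncalled: Ntrk2 had 895.4 against 1037.6 CPM and Ntrk3, higher in all 12 pools, 354.7 against 110.7 CPM.

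Counts for peptide, hormone and transmitter receptor genes stand beside 1.27% called higher and 0.478% lower over all 7320 genes. At those shares a short list would hold few or no called genes. The counts here and on the lists above are therefore a description. Among 7 neuropeptides and related secreted factors Tafa2 was higher and Tafa4 lower, while Gal, Sst and Npy were at 0 in members. No gene was called among 3 serotonin receptors (Htr3b, 72.7 against 244.3 CPM), 3 gut hormone and feeding receptors (Lepr, 77.6 against 38.7 CPM), 3 purinergic receptors (P2rx6, 39.1 against 13.9 CPM), 8 nicotinic and muscarinic receptors (Chrnb3, 39.1 against 10.7 CPM), 9 calcium channels (Cacna2d3, 2336.2 against 1421.6 CPM) or 4 steroid receptors (Nr3c2, 196.4 against 135.8 CPM). Among adhesion and guidance genes, Cdh10 (427.8 against 123.2 CPM) and Cdh12 (615.5 against 174.5 CPM) were the higher ones of 15 cadherins, and Slit2 (522.7 against 146.8 CPM) and Unc5d (706.9 against 212.8 CPM) of 25 guidance genes.

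The 8 neuron markers summed to 6731.6 CPM in members and 7624.4 CPM in other neurons, with none called. Cadm2, an adhesion gene on the list for non-myelinating Schwann cells that neurons also express, was the 1 gene called over all other lists, at 1273.6 against 488.0 CPM. Apoe had 422.2 against 57.6 CPM, with members below other neurons in at least 1 pool and a median log2 ratio of 1.17 in the depth window. Myelinating Schwann cell markers summed to 449.9 against 425.4 CPM, macrophage markers to 15.2 against 7.76 CPM and endothelial markers to 16.6 against 16.0 CPM, and the adipocyte markers were at 0.

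Members that had entered through Ndst4 alone were compared with those that had entered through Dok5 alone, a split made by the counts of the rule itself. Only ML1 and FR3 held at least 10 members of both kinds, so the test compares the kinds within 2 pools and leaves 1 residual degree of freedom. Of 3041 genes tested, without the 3 genes of the rule, 9 (0.296%) passed an adjusted p under 0.05 in edgeR's quasi-likelihood test. The kinds also differed in the clusters they lay in, as given below. These p-values therefore describe the split and cannot separate a gene's level from cluster make-up. Higher in the Ndst4-only members were the guidance receptor Robo1 (log2 fold 2.95 ± 0.34 SE, adjusted p = 0.00326), Zfp804b (1.90 ± 0.23, adjusted p = 0.00326), Nefh (1.74 ± 0.23, adjusted p = 0.00563), ENSRNOG00000065736, Brinp3, Zfp385d, Schip1 and Kazn, with adjusted p-values up to 0.0479. Lower was the potassium channel Kcnt2 (-2.48 ± 0.40, adjusted p = 0.0232). Over all members, Robo1 had 652.1 CPM with Ndst4 alone and 185.2 CPM with Dok5 alone, and Zfp804b 1322 and 383.4 CPM. Nxph1 was not called, at 427.4 and 296.3 CPM (log2 fold 0.19 ± 0.30, adjusted p = 0.901).

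In clusters, the kinds differed mainly in the Gabrg1 cluster, as a description without a test. Of the 209 Ndst4-only members 40 belonged to the Gabrg1 cluster, 35 to the Eya4 cluster and 91 to the leading cluster, while the 56 Dok5-only members had 0, 9 and 22 there, and 71.4% of them lay in neuron clusters against 85.6%. Median depth was 5245 and 5406 UMIs. DESeq2 called 3 of the 9 genes, Robo1, Zfp804b and Nefh, and limma-voom all 9 among 39. Zfp804b and ENSRNOG00000065736 are also among the leading genes of the Gabrg1 cluster. When every pool with both kinds was used, an alternative chosen after seeing the data, 48 of 1562 genes were called and 6 of the 9 were among them. The log2 fold of Robo1 was then 1.70 ± 0.27, that of Nefh 1.13 ± 0.27 and that of Zfp804b 1.95 ± 0.24.

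The share of neurons that were members did not differ between sides beyond the spread of pools. Of the left pools, ML1 had 1.21%, ML2 1.36%, ML3 1.38%, FL1 1.28%, FL2 0.847% and FL3 1.83%. Of the right pools, MR1 had 1.86%, MR2 1.13%, MR3 0.894%, FR1 1.45%, FR2 1.09% and FR3 1.19%. Only members in neuron clusters count here. The sides overlapped, with a left mean of 1.32% ± 0.32 (SD, n = 6 pools) and a right mean of 1.27% ± 0.34 (SD, n = 6 pools) (exact permutation test within labelled sex, two-sided, p = 0.815, adjusted p = 0.88 over 6 measures). With 400 relabellings the smallest p this design can give is 0.005. Male-labelled pools had a mean of 1.30% ± 0.32 and female-labelled pools one of 1.28% ± 0.34 (exact permutation test within side, p = 0.92, adjusted p = 0.92). Without ML1 and FL1 the differences were -0.085 percentage points by side (p = 0.72, exact permutation) and -0.040 by labelled sex (p = 0.917, exact permutation). The exact binomial 95% interval of a single pool was as wide as 0.407 to 1.55% in FL2.

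Median depth of neurons was higher in female-labelled pools, without passing the threshold after adjustment. The deepest pools of each label were FL1 (4080 UMIs) and ML1 (3322), whose Y-linked counts went against the label. This comparison was not rerun without them. Neurons had a median of 2666 ± 489 UMIs (SD, n = 6) in male-labelled pools and 3490 ± 432 (SD, n = 6) in female-labelled pools (exact permutation p = 0.015, adjusted p = 0.09). After thinning every neuron to 2000 UMIs, with shallower neurons left out, the side difference took the other sign, 0.213 percentage points higher on the right (exact permutation p = 0.145), and the female-labelled minus male-labelled difference was -0.277 points (exact permutation p = 0.065). Thinned shares ran from 0.22% in FL2, from 2 members, to 1.03% in MR1, from 12.

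The smaller leading cluster, whose size does not depend on the UMI limits of the rule, made up 1.44% ± 0.36 of left-side neurons and 1.68% ± 0.22 of right-side neurons (SD, n = 6, exact permutation p = 0.185, adjusted p = 0.555). By labelled sex it was 1.63% ± 0.24 and 1.49% ± 0.38 (exact permutation p = 0.43, adjusted p = 0.645). FL2 (12 nuclei) and FL1 (20 nuclei) were the lowest pools, and the sides overlapped.

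**Figure D4:**
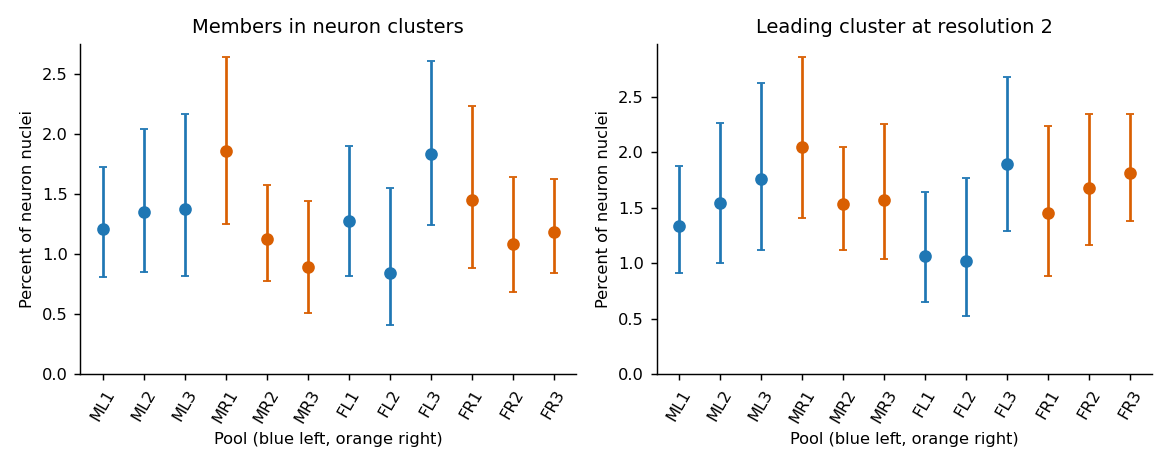
Percent of neuron nuclei in each pool that were members (left panel) or lay in the leading cluster at resolution 2 (right panel), with exact binomial 95% intervals; left pools are blue and right pools orange. The left pools (mean 1.32% for members, 1.44% for the cluster) and the right pools (1.27% and 1.68%) overlap in both.

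No gene was called between sides or labelled sexes within the members. UMIs of members were summed per pool and 5722 genes tested with edgeR, which called 0 genes by side (0%), 0 by labelled sex and 0 for their interaction. At an unadjusted p under 0.05 there were 159, 235 and 145 genes. DESeq2 and limma-voom also called 0 in each. The smallest p by side belonged to ENSRNOG00000011132 (log2 fold 0.61 ± 0.18, right over left, adjusted p = 0.9998 with edgeR), and for the interaction to Dnah11, from 75 UMIs. By labelled sex it was Tmlhe, an enzyme of carnitine synthesis, whose male-labelled pools ran from 66.1 to 101.2 CPM and female-labelled ones from 119.5 to 168.2 CPM (log2 fold 0.79 ± 0.17, adjusted p = 0.547 with edgeR, and 0.160 without ML1 and FL1).

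For the 3 genes of the rule, levels between groups of members are a description, since their UMIs chose the members. By side, the log2 fold of right over left was 0.14 ± 0.18 for Pcdh15, 0.00 ± 0.23 for Ndst4, 0.16 ± 0.22 for Dok5 and 0.29 ± 0.18 for Nxph1. By labelled sex, female over male, it was -0.24 ± 0.18, -0.47 ± 0.23, 0.08 ± 0.22 and -0.15 ± 0.18. For Nxph1, which the rule did not use, the adjusted p with edgeR was 0.9998 by side and 0.9999 by labelled sex. Without ML1 and FL1 together 4 genes were called by labelled sex: Kdm5d, ENSRNOG00000060617 and the entry named Ddx3 were lower and ENSRNOG00000065796 higher in female-labelled pools. Without FL1 alone 2 were called, ENSRNOG00000060617 and Ddx3. These genes were named because they were the only calls, after their values were seen, and Kdm5d is Y-linked.

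Over all neurons, where the rule plays no part, the 4 markers were lower in female-labelled pools without passing the threshold. Pcdh15 had a male-labelled mean of 53.2 ± 11.3 CPM and a female-labelled one of 40.2 ± 8.94 CPM (SD, n = 6; log2 fold -0.41 ± 0.14 SE, adjusted p = 0.173 with edgeR). Ndst4 had 31.9 ± 6.62 and 23.6 ± 5.62 CPM (adjusted p = 0.192 with edgeR), Dok5 18.4 ± 3.77 and 15.2 ± 1.60 CPM (adjusted p = 0.191 with edgeR) and Nxph1 50.5 ± 11.2 and 39.1 ± 10.4 CPM (adjusted p = 0.203 with edgeR). The pools of both labels overlapped for each gene. Over the alternatives the adjusted p ran from 0.0416 to 0.337 for Pcdh15, which passed without the filter on low counts alone, from 0.067 to 0.394 for Ndst4, from 0.0516 to 0.366 for Dok5 and from 0.0705 to 0.41 for Nxph1. Median depth of neurons also differed between the labels, short of the threshold after adjustment, and its part in these values was not tested. A lower summed level cannot be told apart here from fewer nuclei that carry the gene.

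Right over left, Nxph1 had a log2 fold of 0.40 ± 0.15 over all neurons (38.8 ± 13.1 CPM on the left and 50.8 ± 7.44 CPM on the right, adjusted p = 0.719 with edgeR), and Pcdh15, Ndst4 and Dok5 had 0.14, 0.16 and 0.24 with adjusted p-values of 0.916, 0.916 and 0.806. Across all neurons edgeR called 0 of 13737 genes (0%) by side, 844 of them at a raw p under 0.05; DESeq2 called 28. By labelled sex edgeR called 0 of 13737 genes (0%), 2471 of them at a raw p under 0.05; DESeq2 called 308. By labelled sex none of the 4 markers was among the DESeq2 calls. The smallest p belonged to Cyp26b1, a retinoic acid-degrading enzyme, by side (log2 fold -0.74 ± 0.11, adjusted p = 0.0609 with edgeR) and to ENSRNOG00000066325 by labelled sex (-0.37 ± 0.06, adjusted p = 0.069 with edgeR). Leaving out single pools moved the count by labelled sex to 358 without MR1, 83 without ML3, 38 without FR3, and 9 without ML1 or FL1, and the count by side to 2 without FR1. Without ML1 and FL1 together, 24 genes were called by labelled sex.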

How the data were processed

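Nuclei of rat nodose ganglia were fixed, barcoded with Evercode version 2 kits, split into 8 sublibraries and sequenced on a NextSeq 2000, per the labels' protocols. The authors deposited raw counts (UMIs per nucleus and gene); they are not normalised: the sums of the matrix equalled the transcript and gene counts in the deposited nucleus table for all 36741 nuclei. The submitters' processing notes name R 4.3.2, Seurat 4.1.3 and build mRatBN7.2; aligner and counting: not given in the sources used here. Members and gene lists were chosen with earlier results of these data known.

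The filters, a minimum of 300 genes and a maximum of 5% mitochondrial UMIs, left out 1 nucleus and no member. Scrublet (scanpy 1.11.5) marked 1 nucleus, 0.00272% of all, so it has not worked as a doublet caller and no nucleus was removed. Leaving out the 5% with the highest scores (21 members) was an alternative. Clustering used 3000 variable genes for all nuclei and 2000 for neurons, without the genes of the rule, 30 principal components, 20 neighbours and leidenalg 0.10.2 (seed 1, resolution 1, with 0.5 and 2 as alternatives). A class name needed 3 of its markers at 2-fold over the remaining nuclei and 1 among the 10 leading genes, and a neuron cluster 3 neuron markers at 1.5-fold over those classes; names are by likeness. This gave 22950 neuron nuclei. A cluster that failed the neuron limit stayed unnamed, and clusters that also carried markers of another class were set apart as mixed.

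The pool, not the nucleus, was the replicate. The pools were read from the deposited nucleus table. Left and right pools of a sex would draw on the same rats by the numbers given. The main tests treat pools as independent and ignore this, so p-values measure only the spread between these pools. Fits used edgeR 4.0.16 (TMM, filterByExpr, quasi-likelihood test, additive side and labelled sex, Benjamini-Hochberg adjustment over all genes tested), with DESeq2 1.42.0 and limma 3.58.1 as alternatives. On simulated counts with 200 changed genes, the fit of members by side recovered 84% of 2-fold and 100% of 4-fold changes among 5722 genes. Of its 191 calls 7 were false. Members against other neurons and cluster membership are descriptions. CPM are UMIs per 1000000 of the summed nuclei, with a pseudocount of 5 CPM in log2 ratios; levels in fits are scaled by TMM. Named genes are the called genes, or else the one with the smallest p, with the 4 markers, and for the description the 20 highest and 10 lowest and up to 4 called genes of each list, or its most abundant one. CPM were not scaled by gene length, so levels of different genes are not compared. Some genes of these lists are not reported here.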

Additional observations from a re-analysis of the deposited data

Results flagged for a closer look

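The share of FL1's members in the leading cluster, 21.6% (8 of 37), lay far below the other left pools, which ran from 48.5% to 60%; its gap to the nearest of them was above the limit of Dixon's test for 6 values. Chance marks about 1 in 20 such groups. FL1 is also 1 of the 2 pools whose Y-linked counts went against the label. Its members had a median of 7571 UMIs, and 7 of the 37 lay in mixed clusters and 7 in the Eya4 cluster. Their satellite glia markers summed to 796.6 CPM, against 553.4 CPM in members of the other 11 pools, and their skeletal muscle markers to 819.9 against 227.2 CPM. The part of these values in the low share was not tested.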

How the results depend on the processing

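The member share of neurons differed little by side and changed sign with the setting: the right minus left difference, -0.0492 percentage points as reported, was 0.213, 0.0445 and 0.474 after thinning to 2000, 1000 and 4000 UMIs, 0.0152 with at least 3 Pcdh15 UMIs, 0.163 with Ndst4 and Dok5 summing to at least 2, and 0.247 for the leading cluster at resolution 2 (an alternative chosen after seeing the data). Leaving out 1 pool gave -0.167 (without MR1) to 0.0541 (without FL3), and by labelled sex -0.132 (without FL3) to 0.0897 (without MR1).

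The genes at least 2-fold lower than in other neurons, 35 as reported, numbered 58 in the depth window, 59 with at least 3 Pcdh15 UMIs and 69 without the highest Scrublet scores. At 3-fold there were 32 higher and 1 lower. For members of the leading cluster alone, an alternative chosen after seeing the data, there were 147 higher and 87 lower. The leading cluster's share of members was 59.0% with at least 3 Pcdh15 UMIs.

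Without the filter on low counts, edgeR called 3 genes in members by side, 10 by labelled sex and 5 for the interaction, and in neurons 13 by side and 431 by labelled sex. Without ML1 and FL1 it called 4 in members and 24 in neurons by labelled sex. DESeq2 called 28 genes in neurons by side and 308 by labelled sex. Leaving out 1 pool gave 0 to 2 calls in members by labelled sex, 0 to 2 in neurons by side and 0 to 358 in neurons by labelled sex. Ndst4-only against Dok5-only members gave 3 calls with DESeq2, 39 with limma-voom, 32 without the filter and 48 with every pool; leaving out a pool or the pair ML1 and FL1 left no residual degrees of freedom, and only 1 pool had enough of both kinds in neuron clusters alone or without the highest Scrublet scores, so these were not run. The cause of these shifts was not tested.

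Sign changes of the log2 fold fell on markers that were not called in the reported fits. In members by side, Pcdh15 had -0.0832 and Ndst4 -0.36 without ML1 and FL1, and Ndst4 -0.0626 without the highest Scrublet scores and -0.18 to 0.22 when 1 pool was left out. By labelled sex, Dok5 had -0.00690 without ML1 and FL1, -0.19 in neuron clusters alone, -0.0572 without the highest Scrublet scores and -0.0370 to 0.197 with 1 pool left out. For the interaction, Nxph1 had -0.0246 with limma-voom, -0.30 in neuron clusters alone and -0.21 to 0.44 with 1 pool left out, and Ndst4 -0.25 to 0.77. In neurons by side Ndst4 had -0.0656 without ML1 and FL1. Of 463 alternatives for single genes, 421 kept direction and side of the threshold.

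With the replicate number as a block, members by side gave 0 calls, as without it, and Nxph1 had a log2 fold of 0.35. Deviations of equally numbered left and right pools correlated between -0.0712 and 0.0519, and the numbers were not taken to pair the pools. Counting error at 10 to 45 members per pool could also give such low values, so they cannot tell whether equally numbered pools hold the same rats. A pool held 10 to 45 members, and at that size the simulated fit by side recovered 84% of 2-fold changes among 5722 genes. That rate is not given by abundance, so it does not tell how many changes in genes with few UMIs would be missed.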
